A study of Mus musculus with 6 samples.

Results

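The genes described here are 45 genes of the cell cycle, 20 that act in S phase, when DNA is copied, and 25 that act in G2 and mitosis, when the copied chromosomes are separated. They were chosen by symbol from a list of S phase and mitotic genes, and all 45 were found among the 55291 gene names of the count table. Each gene was assigned to its phase by hand from textbook knowledge of its product, and every value given by phase rests on that split. Their RNA was counted in natural killer (NK) cells, lymphocytes of innate immunity that kill stressed and tumour cells, taken from mouse spleen. The first group was 3 mice whose heat shock factor 1 (HSF1) carries alanine in place of serine at positions 303 and 307 (S303/7A 5, 6 and 7). The second was 3 mice wild type for HSF1 (WT 1, 2 and 3). All 6 mice were unchallenged, each gave 1 library, and the cells were enriched with DX5 beads and sorted as CD49b+ and CD3e-. The labels name neither the age, the sex nor the strain of the mice. The submitters describe S303/7A animals as HSF1-enhanced, and the question put to these genes is whether their resting NK cells carry more or less RNA for DNA replication and division.

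A cell that enters the cycle first makes the proteins that load and fire the replicative helicase and that supply nucleotides, under E2F transcription factors released from the retinoblastoma protein family. Later it makes the cyclins, kinases and motor proteins of mitosis, under MuvB complexes that contain B-MYB and FOXM1. In resting cells the same MuvB core forms the DREAM complex, which keeps both waves silent. Most splenic NK cells rest in G1 or G0 at steady state, and a minority cycles. A larger share of dividing cells and more of these transcripts per dividing cell cannot be told apart in bulk RNA.

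The mitotic and S phase genes are set side by side, and the difference between the phases was not tested. Of the 25 mitotic genes, 24 had a log2 fold of S303/7A over WT above 0, and their median was 0.45, a ratio of 1.36. Of the 20 S phase genes, 15 were above 0, and their median was 0.10, a ratio of 1.07. Over all 16480 genes tested, 51.7% had a fold above 0 and the median was 0.01. No member passed the test, which was edgeR's quasi-likelihood test with Benjamini-Hochberg adjustment over all genes tested and a threshold of 0.05. Genes that pass it are described as called. The count of members called higher was 0 of 45, beside 0.133% of all genes tested, and the count called lower was also 0, beside 0.231%. At an unadjusted p under 0.05 in the same test, 5 members were higher (4 mitotic and 1 of S phase), beside 4.21% of all genes, and 0 were lower, beside 5.47%. DESeq2 also called 0 members, beside 1.27% of its 34067 genes, and had 14 members at an unadjusted p under 0.05. Its 34067 genes were all those with any count, without the edgeR filter, so the 1.27% is not like the edgeR shares. In limma-voom 0 were called, beside 0.231% of 16480 genes, and 4 were at that unadjusted threshold. For DESeq2 and limma-voom the share of all genes at an unadjusted p under 0.05 was not read, so 14 and 4 have no background here.

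The folds of the mitotic genes rested on which mice of either genotype were looked at. S303/7A 5 was above every WT library in 22 of 25 mitotic genes and S303/7A 6 in 22, while S303/7A 7 was above every WT library in 0. Over all genes tested these shares were 28.5%, 28.8% and 28.3%. S303/7A 7 was the lowest of its genotype in 23 mitotic genes, beside 35.1% of all genes tested, and WT 1 was the highest of its genotype in 22, beside 31.9%. Without S303/7A 7 the mitotic median was 0.67, without S303/7A 5 it was 0.32 and without S303/7A 6 it was 0.35. Without WT 1, 2 and 3 in turn it was 0.53, 0.39 and 0.33. The S phase median was 0.02 without S303/7A 6, 0.05 without WT 3 and 0.15 without S303/7A 7. In 0 of the 25 mitotic genes did every S303/7A library lie above every WT library. Among S phase genes this held for 1, E2f1, and over all genes tested for 7.64%.

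**Figure D1:**
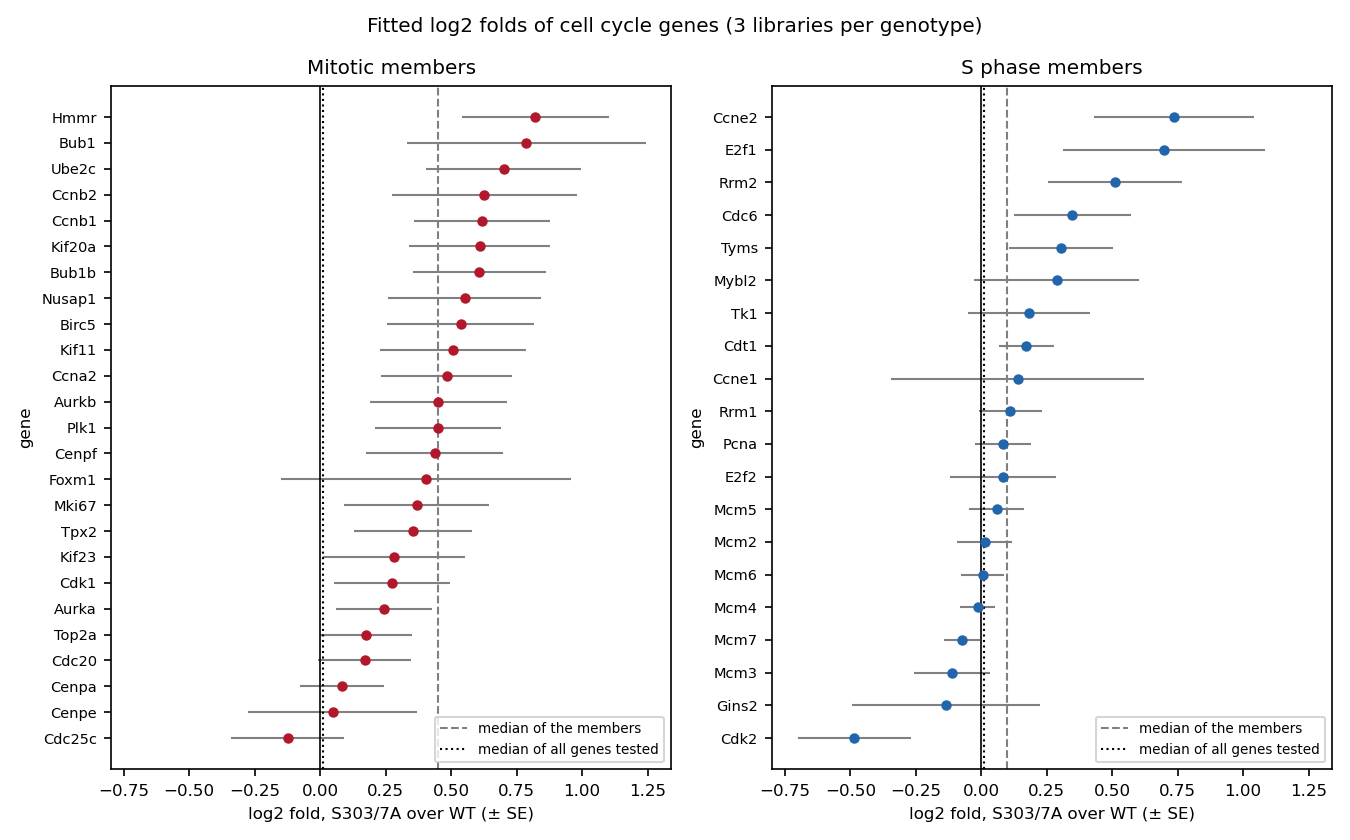
Log2 fold of S303/7A over WT for each of the 45 genes, with its standard error as a bar, by phase; dashed lines are the medians of the phase and dotted lines that of all genes tested. Mitotic genes lie mostly above 0 around their median of 0.45, and S phase genes around their median of 0.10; no gene passed the adjusted threshold.

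The start regions of the genes were searched for the sequence features that separate the phases in textbook accounts, and 6 are printed here. RefSeq windows of 250 bases before to 50 after the transcription start (GRCm38.p6) were matched for 36 of the 45 members, 19 mitotic and 17 of S phase. For each phase the lines give the 2 genes with the highest level per kilobase that hold the motif of their phase and 1 that lacks it. Cdc20 (chr4:118437294-118437593, minus strand) encodes the activator of the anaphase promoting complex, Ccnb2 (chr9:70421505-70421804, minus strand) a B-type cyclin, and Birc5 (chr11:117848987-117849286, plus strand) survivin of the chromosomal passenger complex. Mcm6 (chr1:128359656-128359955, minus strand) and Mcm5 (chr8:75109259-75109558, plus strand) encode helicase subunits, and Pcna (chr2:132253131-132253430, minus strand) the sliding clamp of DNA polymerase. Each sequence is written 5′ to 3′ on the strand of its gene. Capitals mark the cell cycle homology region (CHR, TTTGAA), its variant TTTAAA and the E2F motif TTTNNCGC, on either strand, with matches that overlap run together.
Cdc20: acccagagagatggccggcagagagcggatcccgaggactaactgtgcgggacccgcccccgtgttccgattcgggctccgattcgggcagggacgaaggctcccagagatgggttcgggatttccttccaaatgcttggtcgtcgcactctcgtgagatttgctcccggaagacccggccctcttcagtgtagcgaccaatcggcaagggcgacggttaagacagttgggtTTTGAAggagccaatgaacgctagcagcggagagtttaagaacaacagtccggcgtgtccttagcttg
Ccnb2: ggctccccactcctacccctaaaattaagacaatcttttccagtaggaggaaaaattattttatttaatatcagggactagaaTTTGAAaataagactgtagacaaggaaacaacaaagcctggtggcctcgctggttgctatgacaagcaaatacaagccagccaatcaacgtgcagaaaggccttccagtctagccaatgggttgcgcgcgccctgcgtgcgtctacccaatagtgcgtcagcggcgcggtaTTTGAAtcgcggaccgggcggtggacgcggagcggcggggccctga
Birc5: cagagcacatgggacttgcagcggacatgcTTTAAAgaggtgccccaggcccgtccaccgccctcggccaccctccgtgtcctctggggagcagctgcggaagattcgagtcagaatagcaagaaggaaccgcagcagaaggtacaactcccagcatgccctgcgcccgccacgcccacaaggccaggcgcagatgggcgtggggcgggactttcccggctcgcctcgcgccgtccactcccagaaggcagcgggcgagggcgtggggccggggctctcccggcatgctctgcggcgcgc
Mcm6: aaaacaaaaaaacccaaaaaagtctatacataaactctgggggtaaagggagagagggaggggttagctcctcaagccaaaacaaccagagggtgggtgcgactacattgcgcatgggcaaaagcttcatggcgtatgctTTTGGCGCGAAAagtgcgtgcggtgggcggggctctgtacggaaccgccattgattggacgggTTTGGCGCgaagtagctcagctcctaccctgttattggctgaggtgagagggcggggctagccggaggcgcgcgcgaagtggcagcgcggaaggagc
Mcm5: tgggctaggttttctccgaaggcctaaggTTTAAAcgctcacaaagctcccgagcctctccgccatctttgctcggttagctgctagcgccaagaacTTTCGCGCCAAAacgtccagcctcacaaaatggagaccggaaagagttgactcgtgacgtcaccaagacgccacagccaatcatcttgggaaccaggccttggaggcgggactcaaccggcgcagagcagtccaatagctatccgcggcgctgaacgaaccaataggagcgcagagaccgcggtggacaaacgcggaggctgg
Pcna: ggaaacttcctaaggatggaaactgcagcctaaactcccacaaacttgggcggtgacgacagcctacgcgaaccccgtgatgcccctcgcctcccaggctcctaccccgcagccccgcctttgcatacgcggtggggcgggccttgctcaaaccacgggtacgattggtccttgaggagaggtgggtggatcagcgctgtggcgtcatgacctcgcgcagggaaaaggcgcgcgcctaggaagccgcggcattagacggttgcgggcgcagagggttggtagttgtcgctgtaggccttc

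Cdc20 holds 1 CHR and Ccnb2 holds 2, while Birc5 holds only the variant and Pcna none of the motifs in capitals. Mcm6 and Mcm5 each hold a pair of overlapping E2F matches, read on opposite strands, and Mcm6 holds another E2F match nearer the start. The CHR was found in 14 of 19 mitotic windows (73.7%), in 2 of 17 S phase windows (11.8%) and in 20.2% of the windows of all 27025 genes. The E2F motif was found in 1 of 19 mitotic windows (5.26%), that of Cdk1, in 9 of 17 S phase windows (52.9%) and in 5.93% of all. The variant TTTAAA was in 36.8% of mitotic, 23.5% of S phase and 14.9% of all windows. The CCAAT box, the letters CCAAT bound by NF-Y, was in 89.5% of mitotic, 58.8% of S phase and 41.1% of all windows. GC content was 58.8% in mitotic, 60.4% in S phase and 53.8% in all windows.

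Most CHR matches of the mitotic genes lay close to the start. Of 18 CHR matches in mitotic windows, which lay between -179 and 40, 15 were within 100 bases of the start. Of 15 E2F matches in S phase windows, which lay between -165 and 41, 8 were within 100 bases. A 3-unit heat shock element, the kind of repeat that HSF1 binds, was searched on both strands as the units GAA, TTC and GAA with 2 bases between neighbours, and it matched 0 mitotic and 0 S phase windows, against 0.662% of all windows. A match is a description of letters, and the absence of a match says only that these letters are not in the window.

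**Figure D2:**
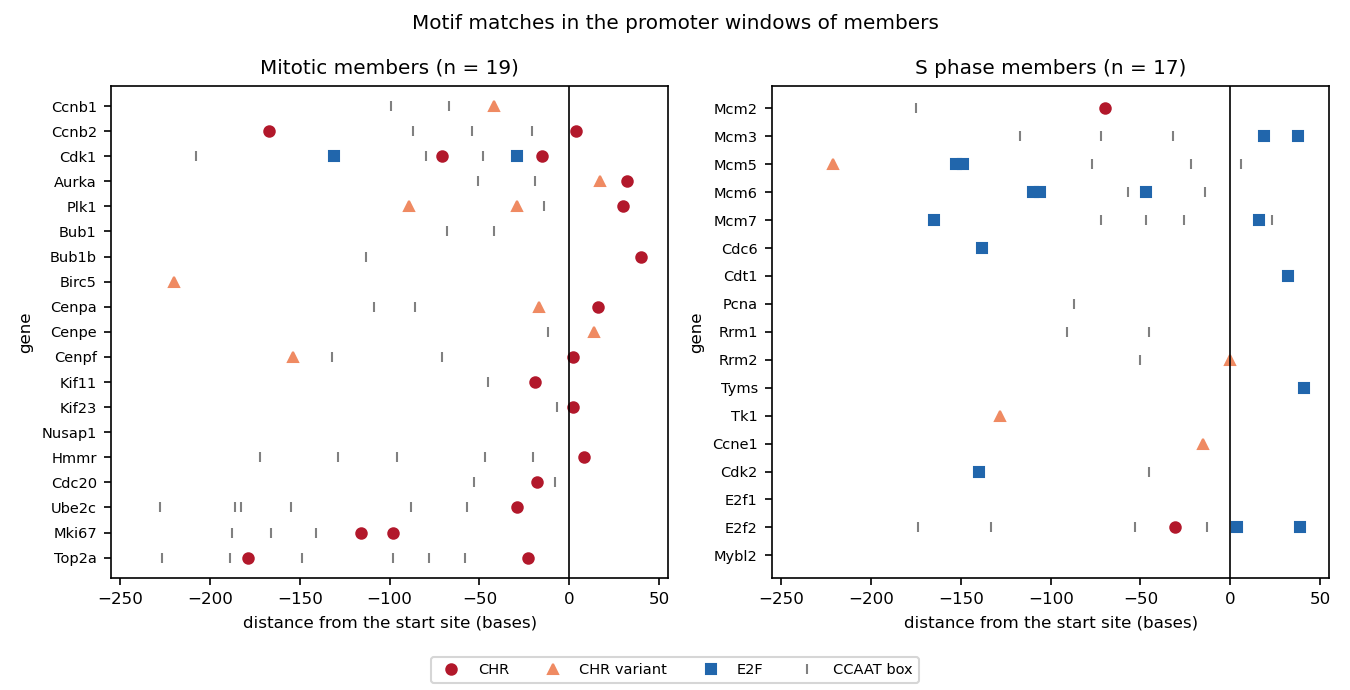
Motif matches in the promoter windows of 19 mitotic and 17 S phase genes, by distance from the transcription start in bases. CHR matches (circles) appear in 14 mitotic and 2 S phase windows, and E2F matches (squares) in 1 mitotic and 9 S phase windows; triangles are the CHR variant and ticks the CCAAT box.

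Levels are given as CPM, counts divided by the library total after scaling with edgeR's TMM factors. Total counts were 43189163 to 47248039 in S303/7A and 53845572 to 72736406 in WT, so depth differed with genotype. Member counts ran from 43 for E2f1 in its lowest library to 25706 for Mcm6 in its highest, and all 45 members passed the filter on low counts. The 25 mitotic genes summed to 723, 697 and 424 CPM in S303/7A 5, 6 and 7, against 553, 449 and 410 CPM in WT 1, 2 and 3. S303/7A 5 and 6 were above every WT library, and S303/7A 7 lay within the WT range. The 20 S phase genes summed to 1607, 1720 and 1407 CPM in S303/7A, against 1564, 1518 and 1518 CPM in WT. Here S303/7A 7 was below every WT library, and the groups overlapped. Mean log2 CPM of the mitotic genes was 4.29 ± 0.41 in S303/7A and 3.90 ± 0.25 in WT (SD, n = 3 each), a difference of 0.40 beside a pooled SD of 0.34. For the S phase genes it was 5.17 ± 0.16 and 5.03 ± 0.12, a difference of 0.14 that equalled the pooled SD of 0.14.

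**Figure D3:**
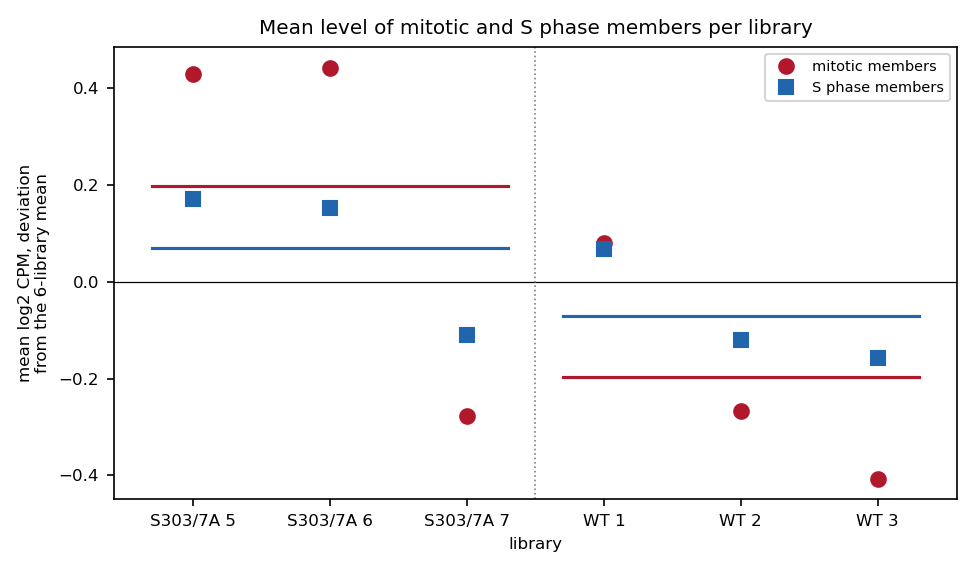
Mean deviation of log2 CPM from each gene's mean over the 6 libraries, by library, for mitotic genes (circles) and S phase genes (squares), with horizontal lines at the mean of each genotype. For mitotic genes S303/7A 5, 6 and 7 sit at 0.43, 0.44 and -0.28 and WT 1, 2 and 3 at 0.08, -0.27 and -0.41. For S phase genes S303/7A 5, 6 and 7 sit at 0.17, 0.15 and -0.11 and WT 1, 2 and 3 at 0.07, -0.12 and -0.16.

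The spread between mice was read as the ratio of the highest to the lowest library of a genotype. Its median over the mitotic genes was 1.88 in S303/7A and 1.39 in WT, and it was wider in S303/7A for 18 of 25. Over the S phase genes it was 1.41 in S303/7A and 1.22 in WT, wider in S303/7A for 14 of 20. Over all genes tested the medians were 1.38 in S303/7A and 1.33 in WT, and 55.5% were wider in S303/7A, whose libraries had lower totals. The part of depth in these ratios was not tested.

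Per kilobase of annotated exon (CPM per kilobase), replication genes were the most abundant. The length used was all annotated exons of a gene joined, which can be longer than its transcript, so levels of such genes are understated. It was 11012 bases for Rrm1 and 1868 for Cdc20, and the ranking and medians rest on it. Mcm6 had the highest mean level over the 6 libraries at 74.4 CPM per kilobase, then Mcm4 at 58.8, Mcm5 at 36.2, Pcna at 32.9, Mcm3 at 31.9 and Mcm7 at 30.3. All of these are S phase genes, as were the next 3, Rrm2 at 22.0, Cdt1 at 20.6 and Mcm2 at 19.3. The most abundant mitotic genes were Cdc20 at 16.0 and Ccnb2 at 15.5. The lowest were Foxm1 at 0.777, Cdc25c at 0.660, Cenpf at 0.653 and E2f1 at 0.612. The median level was 4.65 CPM per kilobase in S303/7A and 3.59 in WT for mitotic genes, and 8.88 in S303/7A and 8.10 in WT for S phase genes.

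Of all the roles, loading of the replicative helicase had the median log2 fold nearest 0. S303/7A 7 was the lowest of its genotype in 7 of the 9 genes of this role, beside 35.1% of all genes tested. These 9 genes were the helicase subunits Mcm2 to Mcm7, the loaders Cdc6 and Cdt1 and the helicase partner Gins2. They had a median log2 fold of 0.01, with 5 of 9 above 0, and 0 were called. Mcm2 had 130, 154 and 121 CPM in S303/7A and 142, 125 and 135 CPM in WT, and the groups overlapped. Its log2 fold was 0.01 ± 0.11 (SE, adjusted p 0.986). Mcm6, the most abundant, ranged from 313 to 374 CPM in S303/7A and from 329 to 361 CPM in WT. Fitted folds of Mcm3 to Mcm7 lay between -0.11 and 0.06 with standard errors of 0.07 to 0.15. Cdc6 had a fold of 0.35 ± 0.23, Cdt1 0.17 ± 0.10 and Gins2 -0.14 ± 0.36.

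The clamp and the enzymes of deoxynucleotide supply had 5 of 5 folds above 0 and a median of 0.18. Pcna had 80.2, 91.2 and 72.1 CPM in S303/7A, against 71.8, 76.4 and 81.6 CPM in WT, with a fold of 0.08 ± 0.11 (adjusted p 0.891). The groups overlapped, with S303/7A 6 the highest library. Rrm2 (chromosome 12, 24708241 to 24714146, plus strand), the cell cycle regulated subunit of ribonucleotide reductase, had 86.1, 86.4 and 42.4 CPM in S303/7A, against 53.4, 50.7 and 46.9 CPM in WT. S303/7A 5 and 6 were above every WT library and S303/7A 7 below every one. Its log2 fold was 0.51 ± 0.26 (unadjusted p 0.0862, adjusted p 0.605). Rrm1, the large subunit, had 0.11 ± 0.12, the thymidylate synthase gene Tyms 0.30 ± 0.20 and the thymidine kinase gene Tk1 0.18 ± 0.23.

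Cyclin E2 and CDK2 had folds of opposite sign. Ccne2 (chromosome 4, 11191351 to 11204779, plus strand), which encodes cyclin E2, had 13.0, 11.9 and 5.84 CPM in S303/7A, against 6.404, 5.42 and 6.61 CPM in WT. S303/7A 5 and 6 were higher than all WT libraries, and S303/7A 7 lay inside their range. The log2 fold was 0.74 ± 0.30 (unadjusted p 0.0459, adjusted p 0.506). Ccne1, the other cyclin E gene, had 8.75, 5.01 and 12.7 CPM in S303/7A and 12.8, 7.46 and 3.86 CPM in WT, a scatter without separation, with a fold of 0.14 ± 0.48 (adjusted p 0.968). Cdk2, the kinase of cyclins E and A, had 25.7, 18.9 and 14.6 CPM in S303/7A, against 24.5, 30.4 and 27.9 CPM in WT. Its fold of -0.48 ± 0.22 (adjusted p 0.534) was the lowest of all 45 genes, and the groups overlapped only through S303/7A 5.

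The 3 transcription factors of the S phase list each had a fold above 0. E2f1 (chromosome 2, 154559407 to 154569892, minus strand), an activator of replication genes, had 2.01, 2.32 and 2.85 CPM in S303/7A, against 1.81, 0.791 and 1.81 CPM in WT. All S303/7A libraries were above all WT libraries, with S303/7A 7 the highest. The log2 fold was 0.70 ± 0.39 (adjusted p 0.649), and the counts behind it were 43 to 133 per library. E2f2, an activator of the same class, had 18.7, 20.7 and 22.0 CPM in S303/7A and 24.98, 17.9 and 15.1 CPM in WT, with a fold of 0.08 ± 0.20 (adjusted p 0.951). Its range in S303/7A lay within that of WT. Mybl2, which encodes B-MYB, had 9.49, 5.06 and 5.70 CPM in S303/7A and 6.15, 6.51 and 3.93 CPM in WT, with a fold of 0.29 ± 0.31 (adjusted p 0.863).

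**Figure D4:**
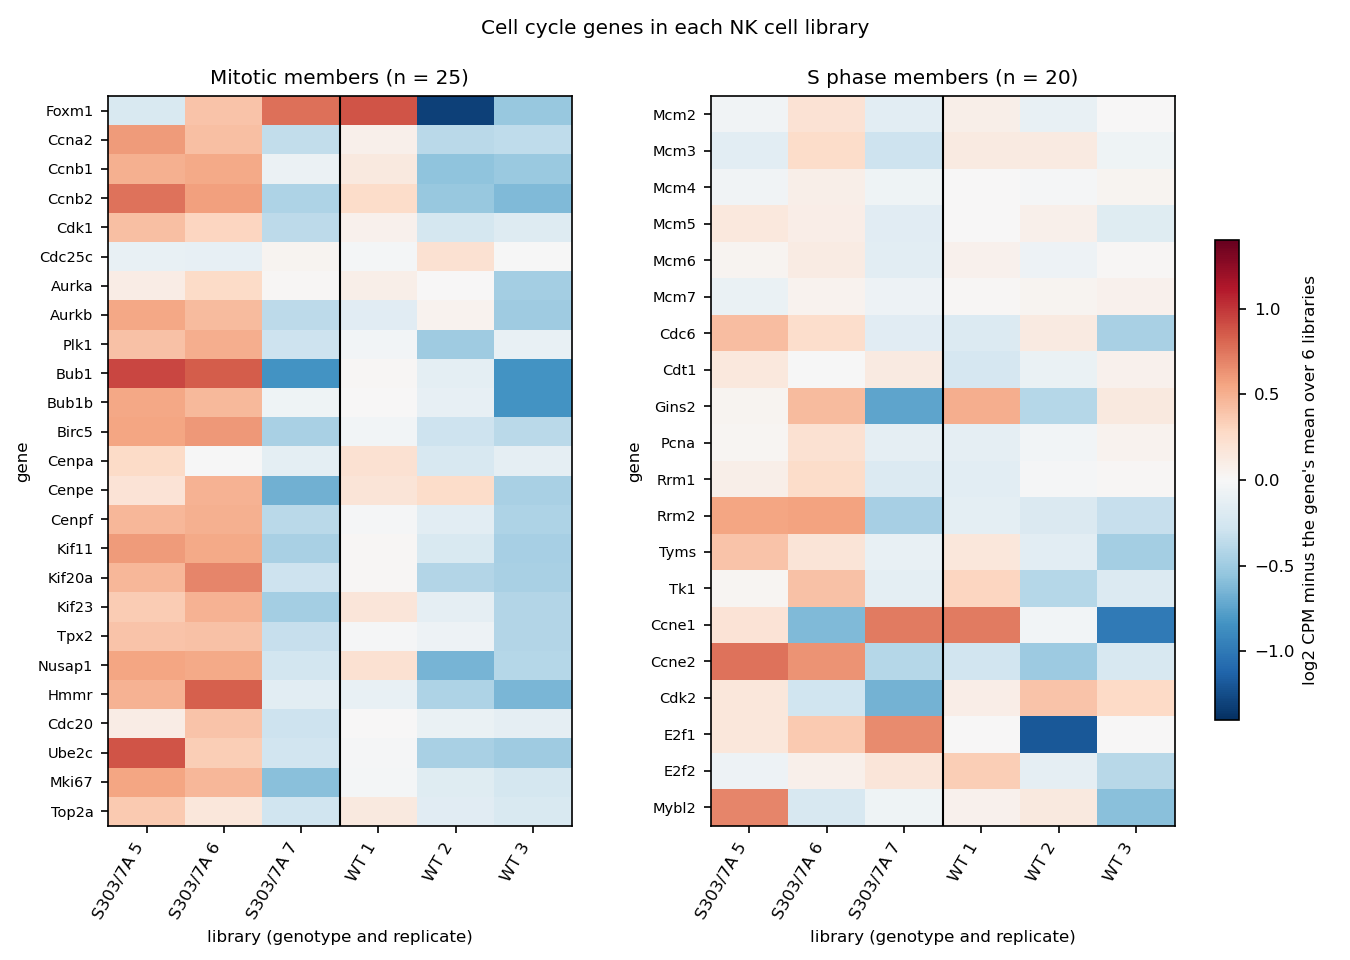
Deviation of log2 CPM from each gene's mean over the 6 libraries, for all 45 genes (rows) in S303/7A 5, 6 and 7 and then WT 1, 2 and 3 (columns). Red is above and blue below the mean. In 22 of 25 mitotic rows S303/7A 5 is above every WT library, as is S303/7A 6 in 22, and S303/7A 7 in 0, while the rows of Mcm2 to Mcm7 stay near 0 in all libraries.

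Among the mitotic regulators, Foxm1, which drives late cell cycle genes, had 3.38, 5.20 and 6.70 CPM in S303/7A and 7.23, 1.58 and 2.72 CPM in WT. Its log2 fold was 0.41 ± 0.55 (adjusted p 0.9004). The highest library was WT 1, and S303/7A 7 was the highest of its genotype, unlike most mitotic genes. Of the cyclins, CDK1 and its phosphatase, 4 of 5 folds were above 0, with a median of 0.48.

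Ccna2, cyclin A2, had 49.7, 44.2 and 26.0 CPM in S303/7A, against 34.6, 25.4 and 25.8 CPM in WT, with a fold of 0.48 ± 0.25 (adjusted p 0.622). Ccnb1, cyclin B1, had 16.7, 17.1 and 11.1 CPM in S303/7A, against 13.0, 7.997 and 8.26 CPM in WT, with a fold of 0.62 ± 0.26 (unadjusted p 0.0486, adjusted p 0.512). Ccnb2, cyclin B2, had 37.3, 32.8 and 16.4 CPM in S303/7A, against 26.4, 15.3 and 14.4 CPM in WT, with a fold of 0.63 ± 0.35 (adjusted p 0.657). In all 3 cyclin genes S303/7A 5 and 6 were above every WT library, and S303/7A 7 lay below WT 1 and above WT 2 and 3. Cdk1, the kinase of these cyclins, had 23.3, 21.5 and 13.6 CPM in S303/7A and 18.2, 14.7 and 15.4 CPM in WT, with a fold of 0.27 ± 0.22 (adjusted p 0.785). Its S303/7A 7 value was the lowest of the 6 libraries. Cdc25c, a phosphatase that activates CDK1, had the only mitotic fold below 0, -0.12 ± 0.21 (adjusted p 0.927), at 2.99 to 3.32 CPM in S303/7A and 3.19 to 3.75 CPM in WT.

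The kinases, checkpoint and passenger complex genes had 6 of 6 folds above 0, with a median of 0.49, and S303/7A 5 and 6 were above every WT library in all 6. Bub1, a spindle checkpoint kinase, had 17.8, 16.7 and 5.22 CPM in S303/7A, against 9.38, 8.46 and 5.22 CPM in WT. S303/7A 7 equalled the lowest WT library to 3 digits. The fold was 0.79 ± 0.46 (adjusted p 0.671). Bub1b, which encodes the checkpoint protein BUBR1, had 37.9, 35.6 and 24.9 CPM in S303/7A, against 26.1, 23.9 and 14.6 CPM in WT, with a fold of 0.61 ± 0.25 (unadjusted p 0.0481, adjusted p 0.510). The Aurora kinase genes Aurka and Aurkb had folds of 0.24 ± 0.18 and 0.45 ± 0.26, the polo-like kinase gene Plk1 0.45 ± 0.24 and Birc5 0.54 ± 0.28.

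The spindle and cytokinesis genes had the highest median of the mitotic roles, 0.53, with 6 of 6 above 0. Hmmr (chromosome 11, 40701395 to 40733422, minus strand), a receptor for hyaluronan that also organises the spindle, had 10.8, 13.8 and 7.00 CPM in S303/7A, against 7.20, 5.74 and 4.95 CPM in WT. The groups overlapped only because WT 1 lay above S303/7A 7. Its fold of 0.82 ± 0.28 was the largest of the 45 genes and had the smallest p (unadjusted 0.0219, adjusted 0.413). The kinesin genes Kif11, Kif20a and Kif23 had folds of 0.51 ± 0.28, 0.61 ± 0.27 and 0.28 ± 0.27, the spindle assembly factor Tpx2 0.36 ± 0.23 and the spindle protein gene Nusap1 0.55 ± 0.29.

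Of the partners of the anaphase promoting complex, Ube2c, its ubiquitin-conjugating enzyme, had 28.5, 19.6 and 12.8 CPM in S303/7A, against 15.3, 11.3 and 10.9 CPM in WT. S303/7A 5 and 6 were above every WT library. The fold was 0.70 ± 0.29 (unadjusted p 0.0488, adjusted p 0.512), while that of Cdc20 was 0.17 ± 0.18. The centromere and kinetochore genes had 3 of 3 folds above 0, with a median of 0.08. Cenpa, the centromeric histone, had a fold of 0.08 ± 0.16, the kinetochore kinesin Cenpe 0.05 ± 0.32 and Cenpf 0.44 ± 0.26.

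Mki67 (chromosome 7, 135689784 to 135716361, minus strand), whose product Ki-67 coats mitotic chromosomes and is the usual marker of cycling cells, had 56.6, 53.3 and 25.8 CPM in S303/7A, against 38.0, 34.4 and 32.6 CPM in WT. S303/7A 5 and 6 were above every WT library and S303/7A 7 was below every one. The log2 fold was 0.37 ± 0.28 (adjusted p 0.764). Top2a, the topoisomerase that untangles sister chromatids, had 97.3, 84.0 and 62.1 CPM in S303/7A, against 83.2, 67.7 and 64.9 CPM in WT, the same order of libraries. Its fold was 0.17 ± 0.18 (adjusted p 0.843).

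Other cell cycle genes were read from lists of the pathway. Of 41 further G2 and mitotic genes, 36 had folds above 0, with a median of 0.33. None passed the adjusted threshold (0 called in edgeR), and 11 were at an unadjusted p under 0.05, all higher, beside 4.21% of all genes tested. S303/7A 7 was the lowest of its genotype in 38 of the 41. In 7 of them every S303/7A library was above every WT library, beside 7.64% of all genes tested. Racgap1, a regulator of the central spindle, had 207, 196 and 165 CPM in S303/7A, against 142, 128 and 147 CPM in WT, with a fold of 0.44 ± 0.10 (adjusted p 0.206 in edgeR and 0.0318 in DESeq2). Cdc25b, a phosphatase that activates CDK1, had 190, 180 and 167 CPM in S303/7A, against 134, 108 and 143 CPM in WT, with a fold of 0.48 ± 0.11 (adjusted p 0.218 in edgeR and 0.0292 in DESeq2). In both genes all S303/7A libraries were above all WT libraries, so S303/7A 7 stood apart from WT here. The mitotic kinase gene Nek2 had a fold of 0.78 ± 0.25 (adjusted p 0.371) and the condensin gene Ncapg 0.56 ± 0.19 (adjusted p 0.397).

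Of 31 further S phase genes, 23 had folds above 0, with a median of 0.09. The adjusted threshold was passed by 0 of them in edgeR. At an unadjusted p under 0.05 there were 2 of the 31, Slbp and Dbf4, both higher, beside 4.21% of all genes tested. Slbp, which binds histone messages, had 273, 286 and 264 CPM in S303/7A, against 247, 235 and 248 CPM in WT, with a fold of 0.17 ± 0.06 (adjusted p 0.432). Dbf4, the activator of the CDC7 kinase, had a fold of 0.36 ± 0.15 (adjusted p 0.507). In both genes, and in 3 of the 31 in all, every S303/7A library was above every WT library, beside 7.64% of all genes tested.

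Of 16 genes of the retinoblastoma family, other E2F factors and DREAM, 11 had folds above 0, with a median of 0.09, and 0 were called. E2f7, an E2F repressor, had 5.78, 6.12 and 4.95 CPM in S303/7A, against 3.03, 2.68 and 3.26 CPM in WT, without overlap. Its fold was 0.91 ± 0.21 (adjusted p 0.202 in edgeR and 0.0194 in DESeq2). Lin9, a subunit of the MuvB core, had 24.6, 19.6 and 14.9 CPM in S303/7A, against 13.3, 9.49 and 14.1 CPM in WT, also without overlap, with a fold of 0.68 ± 0.23 (adjusted p 0.421). Both were named for an unadjusted p under 0.05 in edgeR, so their separation is no further result. Of the 16 genes, 3 were higher without overlap, beside 7.64% of all genes tested. The pocket protein genes Rb1 and Rbl2 had folds of -0.22 ± 0.34 and -0.0048 ± 0.061.

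The D-type cyclins, which couple growth signals to the cycle, and their kinases had 4 of 5 folds above 0, with 0 called. Ccnd2 had 807, 757 and 636 CPM in S303/7A, against 558, 563 and 752 CPM in WT, with a fold of 0.23 ± 0.14, and Ccnd3 had 1160, 1020 and 1100 CPM in S303/7A, against 885, 887 and 1094 CPM in WT, with a fold of 0.19 ± 0.10. Both overlapped through WT 3. Ccnd1 was near 1 CPM or below in all libraries (fold 0.71 ± 0.63), and Cdk4 and Cdk6 had folds of 0.01 ± 0.09 and -0.09 ± 0.12. Among CDK inhibitors, 5 of 7 were tested and 5 had folds above 0, with a median of 0.27, and 0 were called. Cdkn1a, p21, had 6.97, 6.10 and 8.76 CPM in S303/7A, against 5.53, 5.48 and 5.01 CPM in WT, without overlap, with a fold of 0.45 ± 0.20 (adjusted p 0.541). Of the 5 tested inhibitors, 1 was higher without overlap, beside 7.64% of all genes tested. Cdkn1b had 0.09 ± 0.17 and Cdkn2c 0.27 ± 0.21. The untested Cdkn2a had 0 counts in all libraries but WT 1, with 3.

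**Figure D5:**
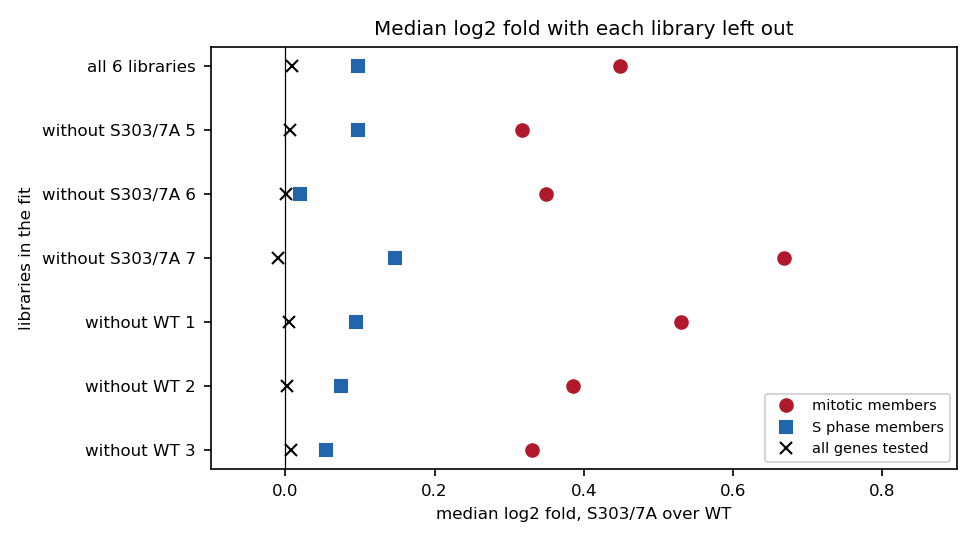
Median log2 fold of S303/7A over WT of the mitotic and S phase genes, with all 6 libraries and with each library left out; crosses are the median of all genes tested. Without S303/7A 7 the mitotic median is 0.67, without S303/7A 5 it is 0.32 and without WT 3 it is 0.33, while the S phase median stays between 0.02 and 0.15.

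Markers of other cells that a CD49b+ gate could hold were read beside these values. NK cell markers summed to 21178 to 22734 CPM in S303/7A and 19806 to 24269 CPM in WT, with 6 folds above 0 and 4 below. The NK receptor gene Ncr1 had 2530, 2455 and 2244 CPM in S303/7A, against 2194, 2140 and 2226 CPM in WT. In the same list Klrk1 was higher without overlap (log2 fold 0.57, adjusted p 0.0700 in edgeR), and Klrb1c was lower without overlap (-0.54). Of the 10 NK markers, 2 were higher and 1 lower without overlap, beside 7.64% and 8.37% of all genes tested. Eomes ran from 140 to 717 CPM in S303/7A and from 148 to 476 CPM in WT. The markers of the labelled cell type were thus the most abundant of the cell type lists. Summed T cell markers were 2096 to 2270 CPM in S303/7A and 2009 to 2266 CPM in WT. Most of that sum was Lck, a kinase that NK cells also express, at 1667 to 1802 CPM in S303/7A and 1590 to 1748 CPM in WT. Averaged over the 11 T cell markers, WT 3 was the lowest library, with a mean log2 deviation of -1.11 and a median of -0.70. Its mean holds genes near the floor, Cd4, Cd8a, Cd8b1 and Cd5, at 0.0408, 0, 0.0136 and 0.0952 CPM in WT 3. Of the 11 folds, 9 were above 0, with Trbc2 at 0.39. The 2 below 0 were those of the receptor genes Trac (-0.51) and Trbc1 (-0.31). The CD3 subunit gene Cd3e was at 11.4, 11.8 and 14.8 CPM in S303/7A, against 8.16, 12.6 and 5.50 CPM in WT. B cell markers were 541 to 690 CPM in S303/7A and 342 to 740 CPM in WT, overlapping. Most of that sum was Ighm, at 464 to 581 CPM in S303/7A and 311 to 569 CPM in WT. Erythroid precursor markers summed to 446 to 551 CPM in S303/7A and 392 to 509 CPM in WT, most of it Car2, at 422 to 515 CPM in S303/7A and 346 to 458 CPM in WT. Of the 11 tested, 7 had folds below 0, 0 were called and 4 were lower at an unadjusted p under 0.05 in edgeR. These 4 were the transcription factor genes Gata1 and Klf1 (log2 folds -0.94 and -1.404), Car1 (-1.07) and the erythropoietin receptor gene Epor (-1.24). They had every S303/7A library below every WT library, as had 8.37% of all genes tested. The 4 folds above 0, all with overlapping groups, were those of Car2 (0.28), Hba-a1 (0.34), Hbb-bs (0.53) and Hbb-bt (0.06). Plasma cell markers (316 to 363 CPM in S303/7A and 289 to 384 CPM in WT), monocyte markers (172 to 256 and 207 to 282 CPM) and stem cell markers (188 to 248 and 115 to 298 CPM) overlapped in their sums. Most of the plasma cell sum was Xbp1 (179 to 215 CPM in S303/7A and 181 to 197 CPM in WT) and Prdm1 (129 to 143 and 99.1 to 185 CPM). Ly6c2 made up most of the monocyte sum and Kit most of the stem cell sum. Summed basophil markers, with 7 of 8 folds below 0, were 248, 203 and 302 CPM in S303/7A and 330, 667 and 441 CPM in WT. Summed platelet markers, with 9 of 9 folds below 0, were 214, 164 and 196 CPM in S303/7A and 338, 357 and 315 CPM in WT. Neither sum overlapped between the genotypes, and S303/7A 7 lay with S303/7A 5 and 6 below every WT library in both. Myeloid precursor markers, 5 of 11 tested, summed to 28.3 to 34.7 CPM in S303/7A and 45.1 to 76.9 CPM in WT. Cxcr2 made up most of that sum, at 20.8 to 28.5 CPM in S303/7A and 41.4 to 51.8 CPM in WT. Of the 5 folds, 3 were below 0 and 2 above 0, those of S100a8 (0.86) and S100a9 (1.22). Untested granule genes went both ways. Elane had 0, 0 and 4 counts in S303/7A and 0, 71 and 0 in WT, and Prtn3 was highest in WT 2 at 58. Ltf had 0, 87 and 0 counts in S303/7A and 0 in every WT library. Ngp had 0, 46 and 0 in S303/7A and 4, 2 and 0 in WT. Among single markers, Klrb1c of the NK list, Ms4a2 of the basophil list and Vwf of the platelet list were called lower (log2 folds -0.54, -0.86 and -1.25, adjusted p 0.0454, 0.0470 and 0.0470 in edgeR). Leaving out any 1 library ended each of these calls, except that Klrb1c passed without WT 1, and limma-voom did not call Ms4a2. The adjusted p in these fits reached 0.183 for Klrb1c, 0.202 for Ms4a2 and 0.201 for Vwf. The part of these markers in the mitotic values was not tested.

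Some members share sequence with other loci, and their counts are uncertain. Ccnb1 shares 99.2% of 1287 bases with the pseudogene Ccnb1-ps and 98.1% of 1294 bases with Gm12856. Mcm7 shares 97.7% of 2157 bases with Gm5487, Pcna 99.2% of 781 bases with Pcna-ps2 and Mybl2 99.7% of 742 bases with Gm3320. Exons of Gins2 overlap those of Gse1 on the opposite strand over 67.3% of their length, those of Kif20a overlap Cdc23 over 29.3%, those of Ube2c overlap Tnnc2 over 22.8% and those of Ccne2 overlap Ints8 over 17.4%. No source used here states the strand setting of the counting, so reads of such pairs cannot be told apart.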

How the data were processed

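RNA from splenic NK cells of 3 S303/7A and 3 WT mice was sequenced, 1 mouse per library, with the SMART-seq HT kit per the labels' protocols. Raw counts per gene were deposited by the authors. Trimmomatic, STAR, featureCounts and DESeq2 are named in the submitters' processing notes, with build GRCm38 (mm10). No source used here states their versions, the annotation or the strand setting. The deposited normalized table was not used.

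Counts were tested in R 4.3.3 with edgeR 4.0.16: filterByExpr (minimum count 10, minimum total 15) kept 16480 genes, TMM factors were used, and the quasi-likelihood test compared S303/7A with WT, with Benjamini-Hochberg adjustment over all genes tested. 60 genes were called. Wald-type standard errors of the folds come from the same fit. The replicate numbers differ between genotypes, so nothing was paired. Of the gene names, 53292 matched GENCODE M21, which gave exon lengths and positions. Near copies are BLAST+ 2.17.0 hits of at least 95% identity over 200 bases. Within genotypes, library pairs had a chi-square per gene of 30.0 to 97.3, so no pair was 1 library deposited again. Alternatives were other normalizations and filters, DESeq2 1.42.0, limma-voom (limma 3.58.1), a robust fit, thinned counts and leaving out each library. The script was tested on simulated data.

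Members, lists, motifs and the rule for genes named in full were chosen with earlier results of these data known. The rule takes 16 cell cycle genes, members called or at an unadjusted p under 0.05, and the 3 members of each phase with the largest fold. In other lists it takes called genes and up to 4 genes a list with the smallest unadjusted p. Counting error and spread between 3 mice per genotype limit all values.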

Additional observations from a re-analysis of the deposited data

How the results depend on the processing

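No paired analysis was possible because the S303/7A and WT libraries carry different replicate numbers. In all 15 fits 0 members were called, and the lowest adjusted p of any member was 0.0677, without S303/7A 7, in edgeR. The number of members at an unadjusted p under 0.05 was 5 in the edgeR fit with all libraries, 14 in DESeq2, 12 with no filter on low counts and 2 with library totals as scaling. It was 20 without S303/7A 7 and 0 without WT 2. The share of all genes at that threshold was read only in the edgeR fit with all libraries, so the other counts have no background. The median log2 fold of the mitotic genes ran from 0.32 to 0.67 when single libraries were left out and from 0.42 to 0.45 in the other alternatives. That of the S phase genes ran from 0.02 to 0.15 and from 0.07 to 0.11, and the difference of the medians from 0.22 to 0.52 and from 0.31 to 0.35. Scaling by library totals moved the median of all genes to -0.02. Counts of all genes called were 60 in edgeR, 434 in DESeq2, 171 with no filter and 5 to 57 with a library left out.

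Folds near 0 changed sign. With library totals Mcm2 was at -0.015, Mcm6 at -0.023 and Cdk4 at -0.019, and with no filter the log2 fold of Mcm6 was -0.0033. With single libraries left out, the log2 fold ran from -0.094 to 0.082 for Mcm2, -0.062 to 0.0098 for Mcm4, -0.0061 to 0.14 for Mcm5, -0.050 to 0.072 for Mcm6 and -0.43 to 0.12 for Gins2. It ran from -0.0087 to 0.16 for Pcna, -0.23 to 0.64 for Ccne1, -0.070 to 0.31 for E2f2, -0.040 to 0.46 for Mybl2, -0.035 to 0.22 for Cenpa, -0.21 to 0.31 for Cenpe and -0.011 to 0.33 for Cdc20. For genes outside the 45 it ran from -0.060 to 0.066 for Cdk4, -0.022 to 0.31 for Cdkn1b, -0.42 to 0.11 for Rb1 and -0.042 to 0.027 for Rbl2. The cause of these changes was not tested. The adjusted p over the alternatives ran from 0.0194 (DESeq2) to 0.544 for E2f7, from 0.0318 (DESeq2) to 0.549 for Racgap1 and from 0.0292 (DESeq2) to 0.510 for Cdc25b. The median standard error of the mitotic folds was 0.26, beside a median fold of 0.45.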
